A study of Mus musculus with 13 samples.

Results

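The comparison set 1 array of induced neural stem cells in vivo (iNSC in vivo) against 1 array of neural stem cells in vivo (NSC in vivo), 2 of the 13 samples of the series. All samples were labelled as strain C3H and measured as total RNA on Illumina mouse bead arrays. iNSC in vivo was described as neural stem cells induced from embryonic fibroblasts and placed in the adult mouse brain, with the number 14 and no unit for the interval. NSC in vivo was described by cell type alone, with no mention of transplantation. For neither sample do the labels name a sort, a dissected region or a number of animals. Cultured NSC and cultured iNSC, with 3 clones each and 1 array per clone, are used below as reference. Probes were kept where their detection p-value was under 0.01 on at least 1 of the 2 in vivo arrays. These probes gave 6188 genes, of the 10923 named genes detected on at least 1 of the 13 arrays. With 1 array a side there is no replicate check and no test of the in vivo difference, so directions below describe these 2 arrays and not the conditions.

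Neural stem cells divide slowly in niches of the adult brain and give rise to neurons and glia. Brain tissue around them holds microglia, the resident macrophages, together with blood vessels and myelinating oligodendrocytes. In inflamed brain, microglia and infiltrating leukocytes are known to express MHC class II, interferon-response and chemokine genes. Hox genes encode homeodomain proteins that set position along the hindbrain and trunk, and are largely silent in forebrain.

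Levels are background-corrected, quantile-normalized log2 intensities, and a difference is iNSC in vivo minus NSC in vivo on that log2 scale. The share of probes detected was 26.7% (NSC in vivo) and 26.2% (iNSC in vivo), against 40.8% to 49.9% on the other arrays, with median signals of 79.3 and 80.1 intensity units against 102 to 117. Both in vivo arrays detected 4929 of the 6188 genes, iNSC in vivo alone 578 and NSC in vivo alone 681. A gene detected on 1 array is given as a lower bound ("at least"), taking for the other array its detection floor (6.56 for NSC in vivo, 6.63 for iNSC in vivo), or the measured level where that is above the floor. Levels printed for such a gene are the measured ones, so their difference exceeds the bound.

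The labels were set against cell type markers. Of 5 neural stem cell markers on the array, NSC in vivo detected none and iNSC in vivo 1, whereas every clone of cultured NSC and cultured iNSC detected 4. The stem cell gene Sox2 was detected on neither in vivo array, with levels of 4.65 (NSC in vivo) and 4.82 (iNSC in vivo), against medians of 8.36 in cultured NSC and 8.56 in cultured iNSC. Nes, the intermediate filament of neural progenitors, and Fabp7, a fatty acid binding protein of radial glia, were likewise not detected on either in vivo array. Nes had 6.54 on NSC in vivo, just under the detection floor of 6.56, and 4.47 on iNSC in vivo. The detected stem cell marker was Egfr, a growth factor receptor, with a level of 7.34 on iNSC in vivo. None of the 4 neuroblast markers was detected on either array.

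Markers of other brain cells were detected. All 4 microglia markers, all 3 endothelial markers, 4 of 5 oligodendrocyte markers and 3 of 6 neuron markers were found on both arrays. No cultured NSC or iNSC clone detected a microglia marker. The defining stem cell markers are thus near background on both arrays, and the pair is called by its array titles below. In RNA from mixed cells, fewer cells of a type and less RNA per cell cannot be told apart.

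Of the 6188 genes, 571 (9.23%) were at least 2-fold higher on iNSC in vivo and 522 (8.44%) at least 2-fold lower. Genes detected on 1 array were counted at their bound. The other 5095 did not pass 2-fold, which for a bound does not place the gene within 2-fold. At least 4-fold by the same rule, 115 were higher and 97 lower. By measured values, 809 were at least 2-fold higher and 807 lower. List counts below can be read against the shares of 9.23% and 8.44%. The median difference was -0.02, and the levels correlated at r = 0.799 across genes, which are not independent replicates. The in vivo pair thus had 17.7% of its genes past 2-fold. Pairs of clones within NSC had 3.13% to 7.11%, pairs within iNSC 1.09% to 3.39%, and single iNSC arrays against single NSC arrays in culture 9.64% to 13.7%. Of the genes higher on iNSC in vivo, 35.4% were detected by no NSC or iNSC array in culture, against 22.2% of the lower genes and 13.0% of all genes used.

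**Figure D1:**
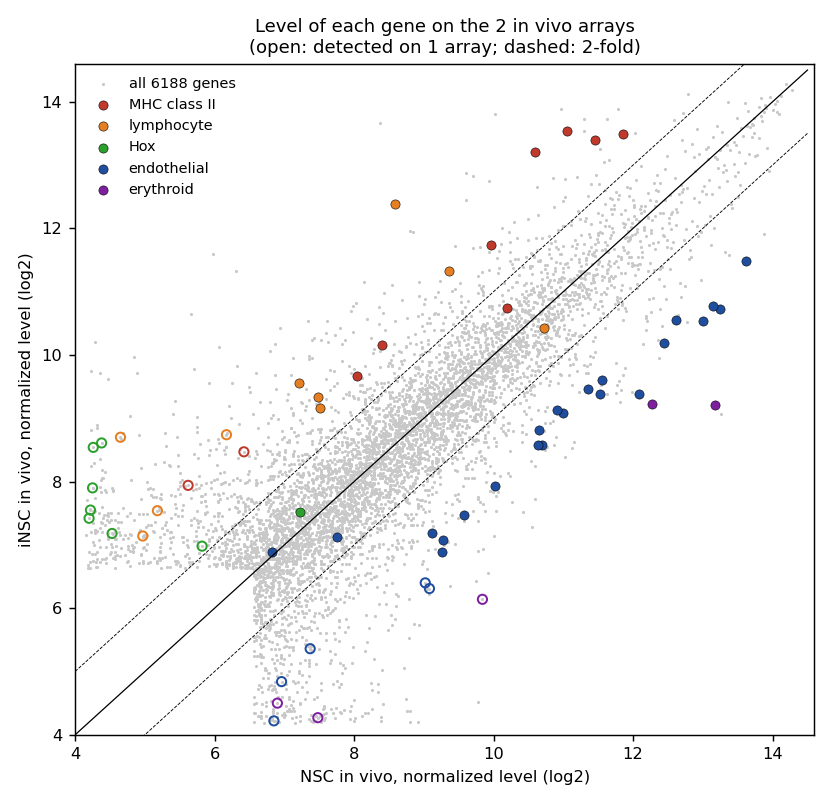
Normalized log2 level of each of the 6188 genes on NSC in vivo (x axis) and iNSC in vivo (y axis), with 5 gene lists in colour, open symbols for genes detected on 1 array, a solid line of equal level and dashed lines at 2-fold. MHC class II and Hox genes lie above the line, and most endothelial and all erythroid genes below it.

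MHC class II genes, which encode the machinery that presents peptides to helper T cells, were higher on iNSC in vivo. Of 13 listed genes 10 were detected, 9 were at least 2-fold higher and none at least 2-fold lower, with a median difference of 1.77. The beta chain gene H2-Eb1 had levels of 10.59 (NSC in vivo) and 13.21 (iNSC in vivo), a difference of 2.62 or 6.14-fold. H2-Ab1, another beta chain gene, had 11.05 and 13.54, a 5.65-fold difference. H2-Aa, an alpha chain gene, had 11.86 and 13.49. Cd74, the invariant chain that escorts class II molecules, had 11.45 and 13.39. Ciita, the master activator of the class, had 8.04 and 9.66. The peptide-loading genes H2-DMa and H2-DMb1 were 3.44-fold and 3.39-fold higher, and Ifi30, a lysosomal reductase detected on iNSC in vivo alone, at least 3.75-fold. H2-Ob, also detected on iNSC in vivo alone (5.62 and 7.94), was at least 2.61-fold higher. The member that did not pass 2-fold, the protease gene Ctss, had 10.19 and 10.74. Among these genes, H2-DMa and Ifi30 were detected in culture, and cultured NSC and iNSC arrays did not detect the others.

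The promoters of class II genes are shown because their members differed most alike for their size among the lists. RefSeq promoter windows (build GRCm38.p6, 250 bases before to 50 after the start) were matched for 5 of the 8 members detected on both arrays, 1 of them with 2 starts. H2-Eb1 lies at chr17:34305617-34305916 on the plus strand, H2-DMb1 at chr17:34152941-34153240 on the plus strand and H2-Aa at chr17:34287774-34288073 on the minus strand. Each is written 5′ to 3′ on the strand of its gene, with Y boxes (CCAAT, or ATTGG on the other strand) in capitals.
H2-Eb1: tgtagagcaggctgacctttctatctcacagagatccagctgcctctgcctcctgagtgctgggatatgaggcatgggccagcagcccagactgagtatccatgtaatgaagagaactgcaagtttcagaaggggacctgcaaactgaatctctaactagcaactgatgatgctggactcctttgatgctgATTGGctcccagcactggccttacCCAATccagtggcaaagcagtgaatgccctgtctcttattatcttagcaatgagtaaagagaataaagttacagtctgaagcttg
H2-DMb1: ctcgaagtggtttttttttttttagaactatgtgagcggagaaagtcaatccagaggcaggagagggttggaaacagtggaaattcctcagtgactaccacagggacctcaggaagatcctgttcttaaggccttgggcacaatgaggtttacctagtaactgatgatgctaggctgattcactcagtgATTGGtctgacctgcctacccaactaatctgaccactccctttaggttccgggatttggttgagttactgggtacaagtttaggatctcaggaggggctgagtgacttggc
H2-Aa: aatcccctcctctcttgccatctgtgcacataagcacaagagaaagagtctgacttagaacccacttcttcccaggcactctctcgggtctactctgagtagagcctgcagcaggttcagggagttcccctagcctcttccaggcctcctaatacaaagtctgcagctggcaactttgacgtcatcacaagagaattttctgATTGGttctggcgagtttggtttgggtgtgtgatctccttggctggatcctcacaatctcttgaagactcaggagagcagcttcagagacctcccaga
The Y box nearest the start lay 35 bases before it in H2-Eb1 (as CCAAT), 61 in H2-DMb1 and 48 in H2-Aa (both as ATTGG). H2-Eb1 also held an ATTGG at 59. The windows not printed are those of H2-DMa, with no Y box at one start and one at 198 bases at the other, and of Ctss, with none. A Y box was present in 4 of the 6 windows of the list and in 37.4% of all 32851 windows. The interferon-stimulated response element core (TTCNNTTT, either strand) was in 3 of 6 against 23.7%, and the Rfx site (GTTGCN, either strand) in 3 of 6 against 35.1%. The motifs were not checked for overlap with each other. A match describes letters and is not a bound site.

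Interferon-response genes were higher as a group. Of 50 on the array, 40 were detected, 26 were at least 2-fold higher and none lower, with a median difference of 1.34. Gbp2b, an interferon-induced GTPase, had the widest gap of all genes detected on both arrays, with 8.37 (NSC in vivo) and 13.66 (iNSC in vivo), or 39.2-fold. Cxcl9, a T cell chemokine induced by interferon gamma, had 9.71 and 12.82, or 8.62-fold. The transcription factor Irf1 had 11.62 and 13.72, and Oasl1, of the oligoadenylate synthetase family, had 7.09 and 9.69. Irgm1, a GTPase of cell-autonomous defence, had 12.58 and 13.71. Within the list, Rtp4, Ly6e and Samd9l did not differ by more than 0.28 in size. Probes of Gbp and H2 family members may read near-identical copies, so single members of these families are uncertain.

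MHC class I and immunoproteasome genes, which present peptides to cytotoxic T cells, showed 8 of 14 detected members at least 2-fold higher and none lower, with a median of 1.11 (0.85, under 2-fold, without background correction). Tap1, a subunit of the peptide transporter, had 6.70 and 8.60. Nlrc5, the activator of class I genes, had 8.15 and 9.82. B2m, the light chain of class I molecules, had 11.47 and 12.85, Psmb9, an immunoproteasome subunit, 9.94 and 11.34, and Psme1, a proteasome activator, 10.86 and 12.34. Each of these 5 genes had its higher level on iNSC in vivo.

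Of 10 detected lymphocyte genes, 7 were at least 2-fold higher and none lower, with a median of 1.91. Ccl5, a chemokine of activated T cells, had 8.59 and 12.39, or 14.0-fold. Cd3d, a chain of the T cell receptor complex, had 7.21 and 9.56. Cd2, an adhesion receptor of T cells, and Cd27, a costimulatory receptor, were detected on iNSC in vivo alone, at least 4.52-fold and at least 4.41-fold higher. Prf1, which encodes perforin, had 10.72 and 10.43. Of 3 defining lymphocyte markers, the T cell gene Cd3e was detected on both arrays, and Cd3g and the B cell gene Cd79a on neither.

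Genes of activated and infiltrating myeloid cells showed 25 of 43 detected members higher and 1 lower, with a median of 1.21. Gpnmb, a glycoprotein of lipid-laden macrophages, had 10.02 and 13.80, or 13.7-fold. Lgals3, which encodes galectin-3, had 10.96 and 13.89. Apoc1, an apolipoprotein gene, had 7.96 and 10.69. Arg1, an arginine-degrading enzyme of alternatively activated macrophages, was detected on iNSC in vivo alone and was at least 9.14-fold higher. The single lower member was Cd163, a scavenger receptor of perivascular macrophages, with 9.82 and 8.34. The lysosomal genes Lyz1 and Ctsb had 12.79 and 14.12, and 13.36 and 14.00.

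The resident microglia list had a median difference near 0, with 6 of 25 detected members higher, 3 lower and a median of 0.03. P2ry12, the purinergic receptor of resting microglia, had 10.28 and 8.80. Tmem119 and Siglech, both markers of resident microglia, had 10.81 and 9.59, and 9.78 and 8.66. Tyrobp, the signalling adaptor of myeloid receptors, had 10.10 and 11.76, and C1qc, a complement subunit, 8.80 and 10.19. The general microglia genes Laptm5 and Selplg differed by -0.03 and -0.06. The difference between the 2 lists was not tested, and C1q genes stand in both the microglia and the complement list.

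Complement genes had 6 of 9 detected members higher and 1 lower, with a median of 1.06 (0.98 without background correction). Cfb, of the alternative pathway, had 8.85 and 11.95, and C2, of the classical pathway, 8.35 and 10.49. Serping1, the C1 inhibitor, had 8.87 and 10.33. The lower member was Cd59a, which blocks the membrane attack complex, with 12.35 and 10.23. Reactive astrocyte genes had 7 of 13 higher and 1 lower, with a median of 1.14 (0.77 without background correction). Timp1, a metalloproteinase inhibitor, and Cd44, a hyaluronan receptor, were detected on iNSC in vivo alone, at least 7.24-fold and at least 3.63-fold higher, and Serpina3n, a protease inhibitor, had 10.05 and 11.53. Hspb1, a small heat shock protein, was the lower member, with 11.15 and 8.63. Among astrocyte markers Gfap was detected on iNSC in vivo alone, while Gja1, a gap junction protein, had 12.97 and 11.94.

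**Figure D2:**
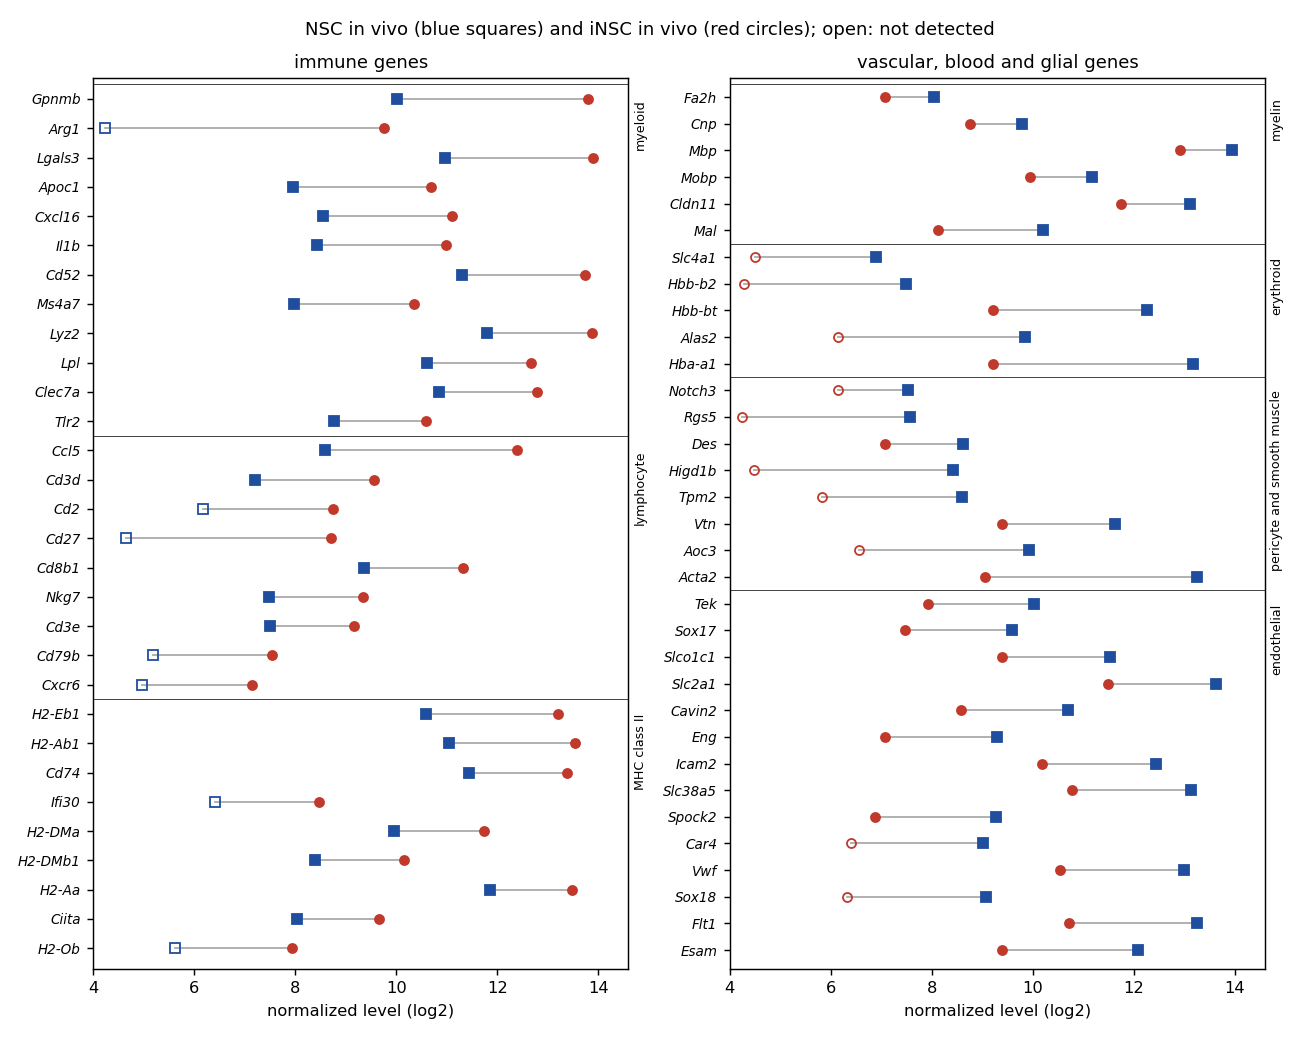
Log2 level of members of 7 lists on NSC in vivo (blue squares) and iNSC in vivo (red circles), joined by a line, with open symbols for an array that did not detect the gene. Members drawn have the largest differences of their list, and a gene in 2 of the lists is drawn once; Acta2 spans 13.26 to 9.06 and Gpnmb 10.02 to 13.80.

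Some genes with the largest differences toward iNSC in vivo stood outside these lists. Fpr2, a formyl peptide receptor of neutrophils and macrophages, was not detected on NSC in vivo (5.97) and had a level of 11.60 on iNSC in vivo, higher by at least 5.04 on the log2 scale. Saa3, an acute phase protein, had 6.30, not detected, and 11.33, higher by at least 4.76. Both were detected on iNSC in vivo alone, as were Cd70, the ligand of CD27 (at least 3.64), Il1rn, the interleukin 1 receptor antagonist (at least 3.40), and the coagulation factor gene F10 (at least 3.56). Among genes detected on both arrays, Cd69, an early activation marker of lymphocytes, had 6.94 and 10.43. Cytip, a cytohesin-binding protein of leukocytes, had 9.61 and 12.87, and Il4i1, an amino acid oxidase of antigen-presenting cells, 8.80 and 11.96. None of these 8 genes was called between the cultured lines. Cultured NSC and iNSC arrays did not detect Fpr2, Cd70, Il1rn, F10, Cd69, Cytip or Il4i1. For these genes the lack of a call therefore does not show that the lines are alike.

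Endothelial genes were lower on iNSC in vivo in 22 of 27 detected members and higher in none, with a median of -2.09. Flt1, a VEGF receptor, had 13.25 (NSC in vivo) and 10.72 (iNSC in vivo). Vwf, the von Willebrand factor, had 13.00 and 10.54, and Esam, an endothelial adhesion molecule, 12.08 and 9.39. Slc2a1, the glucose transporter of the blood-brain barrier, had 13.62 and 11.49. Sox18, an endothelial transcription factor, was at least 5.48-fold lower and detected on NSC in vivo alone. Kdr, the other VEGF receptor of the list, had 6.82 and 6.89. Of the 5 members not past 2-fold, Kdr and Ocln were detected on both arrays. Cdh5, Itm2a and Slco1a4 were detected on NSC in vivo alone, with bounds under 2-fold. Their measured levels were 6.85 and 4.22, 6.96 and 4.84, and 7.37 and 5.36.

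Genes of vessel wall and red cells were also lower on iNSC in vivo. Pericyte and smooth muscle genes had 6 of 13 detected members lower and none higher, with a median of -0.94. Most of the 13 were detected on NSC in vivo alone, and the bound of such a gene cannot rise above 0. The median was -0.55 without background correction and -1.89 among genes detected on both arrays. Acta2, the smooth muscle actin, had 13.26 and 9.06, or 18.3-fold, and was also lower in cultured iNSC (mean 5.60) than in cultured NSC (10.82; limma adjusted p = 2.69e-05, 3 clones each). Vtn, which encodes vitronectin, had 11.63 and 9.38, and Aoc3, an amine oxidase of vascular smooth muscle, was at least 9.76-fold lower. Of 5 detected erythroid genes 3 were lower, with a median of -3.05. Hba-a1, a globin chain whose probe may read its near-identical copy, had 13.17 and 9.21, or 15.6-fold. Alas2, the erythroid enzyme of haem synthesis, was at least 9.27-fold lower. The part of vessel and blood genes in the other differences was not tested. Ependymal and choroid plexus genes had 6 of 12 lower and 2 higher, with a median of -0.98, among them Rsph1, a protein of ciliary spokes, with 9.41 and 7.47.

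Several of the largest differences toward NSC in vivo lay outside these lists. Ptprb, a phosphatase of vascular endothelium, had 10.60 and 7.73, and Adgrl4, an adhesion receptor of endothelium, 10.26 and 7.67. Slc22a8, an organic anion transporter of the blood-brain barrier and choroid plexus, had 9.77 and 6.91. Rgs4, a regulator of G protein signalling, had 9.85 and 6.93, and Rasl12, a small GTPase, 10.55 and 7.28. Gkn3 was detected on NSC in vivo alone (9.78 against 4.52), with a bound of -3.15 on the difference. Nos3, the endothelial nitric oxide synthase, was likewise detected on NSC in vivo alone, with a bound of -2.42.

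Myelin genes had 5 of 12 detected members lower and none higher, with a median of -0.92. Mal, a myelin and lymphocyte protein, had 10.20 and 8.13, Cldn11, a tight junction protein of myelin, 13.12 and 11.74, and Mobp 11.18 and 9.94. Mbp, myelin basic protein, had 13.95 and 12.91, but another of its probes went the other way, with a difference of 1.34 against -1.04. Neuronal genes had 1 of 24 lower and none higher, with a median of -0.53, and the 1 was Kif5a, a motor protein of axons, with 12.80 and 11.52. Neural stem and radial glia genes had 8 of 23 detected, with 1 higher (Vim, an intermediate filament) and 2 lower (Id1 and Sox21). Astrocyte genes had 3 of 18 higher and 1 lower. Cell cycle genes had 3 of 11 detected higher, Mcm5 of DNA replication (7.40 and 8.82), Nusap1 of the spindle (7.13 and 8.43) and Prc1 of the midzone, which was detected on iNSC in vivo alone. Cholesterol synthesis genes had 2 of 12 higher, Fdps (9.36 and 10.82) and Sqle (6.88 and 8.34). Over all 6188 genes 9.23% were higher and 8.44% lower, and these list counts were not tested against those shares.

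Most of the further lists had members past 2-fold, in 1 direction or in both. Oligodendrocyte precursor genes had 2 of 5 detected members lower and none higher, with a median of -0.89, namely Gpr17, a receptor of differentiating precursors (8.60 and 6.96), and Bcas1 (12.37 and 11.20). Neuroblast and immature neuron genes had 2 of 4 lower and none higher, with a median of -0.78, namely Nrep (11.46 and 10.05) and Stmn2, a microtubule regulator of growing axons (8.33 and 7.21). Fibroblast and matrix genes had 4 of 24 detected members higher and 7 lower, among them Mmp2, a gelatinase (7.22 and 8.98), and Col4a1, a basement membrane collagen (10.77 and 9.17). Hypoxia and glycolysis genes had 3 of 19 higher and 2 lower, with Vegfa, the vascular growth factor, at 7.71 and 9.51 and Hk2, a hexokinase, at 10.63 and 12.21. Notch, Bmp and Hedgehog pathway genes had 4 of 15 lower and 1 higher. The Notch target Hey1 had 9.22 and 6.92, and Id1, a target of Bmp signalling, 10.73 and 8.92. Immediate early and stress genes had 2 of 26 higher and 4 lower, with a median of -0.01, and Egr1 and Hspa8 differed by -0.13 and -0.04. Imprinted genes had 3 of 11 lower and 1 higher, with Cdkn1c, a cell cycle inhibitor, at 11.80 and 9.59. Striatal genes had 1 of 7 lower (Gng7, 11.78 and 10.73), with a median of -0.76. No cerebral cortex and hippocampus gene of 4 detected passed 2-fold, with bounds used for genes detected on 1 array. Over all 6188 genes 9.23% were higher and 8.44% lower. Counts of a few members in the lists of this paragraph were not tested against those shares. Of the conversion factor genes Klf4 had 9.89 and 8.62. Pou5f1 was detected on NSC in vivo alone, with 6.98 and 6.56, both near the detection floors, and a bound of 1.27-fold. Myc, Pou3f4, Sox2 and Tcf7l1 were detected on neither array.

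**Figure D3:**
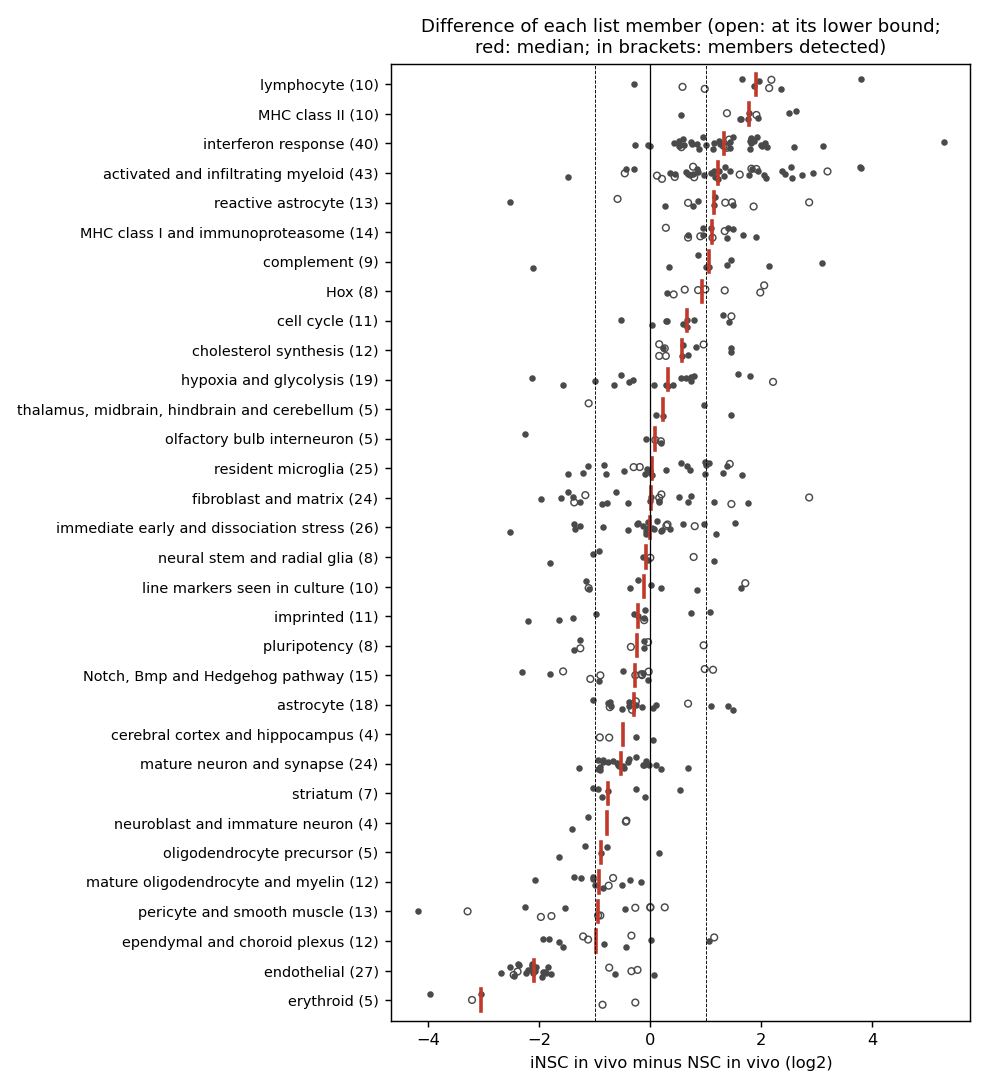
Difference (log2) of each detected member of the gene lists with at least 4 detected members, with open points for genes at their lower bound, a red bar at the median and dashed lines at 2-fold. The medians run from 1.91 for lymphocyte genes to -3.05 for erythroid genes.

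Hox genes were detected almost entirely on iNSC in vivo. Of 38 Hox genes on the array 8 were detected, 7 of them on iNSC in vivo alone, and 3 passed 2-fold at their lower bound (Hoxc9, Hoxc6 and Hoxa5). Hoxc9 had a measured level of 4.38 on NSC in vivo, not detected, and 8.61 on iNSC in vivo, at least 4.14-fold higher. Hoxc6 had 4.26 and 8.54, at least 3.95-fold, and Hoxa5 had 4.25 and 7.90, at least 2.53-fold. Hoxa7, Hoxb2, Hoxd4 and Hoxd8 were at least 1.54-fold, 1.34-fold, 1.98-fold and 1.81-fold higher. The bound of a gene detected on iNSC in vivo alone cannot fall below 0, so none of these 7 could come out lower. Hoxa13, of the posterior cluster end, was detected on both arrays, with 7.22 and 7.52. In culture, these 7 genes were detected by all 3 iNSC clones, and by no NSC clone apart from Hoxb2, which 1 NSC clone detected. The limma fit placed each of them higher in iNSC, from 1.90 for Hoxb2 to 6.60 for Hoxa7.

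Genes that separate the cultured lines were then followed in vivo. In culture, iNSC against NSC (3 clones each) was tested with limma over 15049 probes, with the Benjamini-Hochberg adjustment and a threshold of 0.05. Of the 6188 genes, 681 were called higher in cultured iNSC and 644 lower, and over all probes tested 9.69% were higher and 8.51% lower. Of the 681, 12.0% were at least 2-fold higher in vivo and 10.4% lower. Of the 644, 7.61% were higher in vivo and 12.9% lower. Genes not called in culture were higher in 9.05% and lower in 7.57%. At least 4-fold higher in culture were 59 genes, of which 12 were higher in vivo and 14 lower. At least 4-fold lower in culture were 102 genes, of which 8 were higher in vivo and 25 lower.

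**Figure D4:**
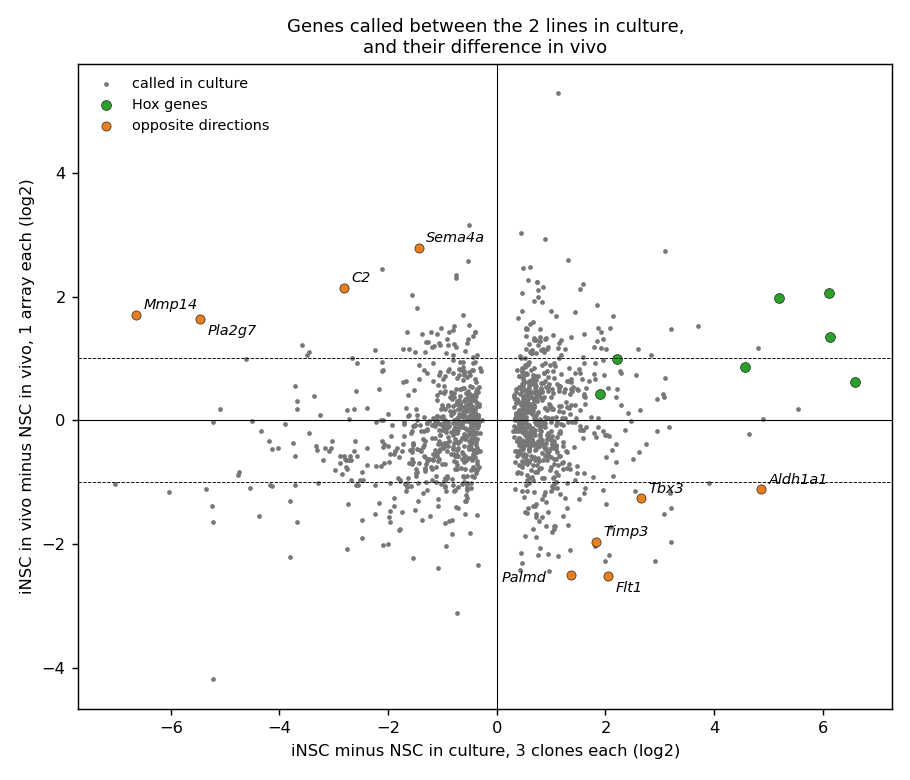
Difference between iNSC and NSC in culture (x axis, log2, 3 clones each) against the difference in vivo (y axis, log2, 1 array each) for the 1325 genes called in culture by limma at an adjusted p of 0.05. Hox genes (green) lie at the right with differences in vivo above 0, and 9 of the named genes that differ at least 2-fold each way in opposite directions are marked. These Hox genes were detected on iNSC in vivo alone, and the bound of such a gene cannot fall below 0.

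Detection itself was compared next. In culture, 171 genes were detected by all 3 iNSC clones and no NSC clone. Of these, 16 were detected on iNSC in vivo alone, 10 on NSC in vivo alone, 26 on both and 119 on neither. The 16 include 6 Hox genes (Hoxa5, Hoxa7, Hoxc6, Hoxc9, Hoxd4 and Hoxd8). The reverse pattern held 251 genes, of which 17 were detected on each array alone, 72 on both and 145 on neither. Xist, the RNA that coats the inactive X chromosome, was detected by NSC clones and on NSC in vivo, with a level of 7.27. It was not detected on iNSC in vivo (5.68), and its bound of 1.56-fold is under 2-fold. Eif2s3y, a Y-linked translation factor gene, had 8.69 (NSC in vivo) and 9.86 (iNSC in vivo), while no NSC clone in culture detected it and the iNSC clones did. Zic1, a zinc finger factor of NSC in culture, was detected on NSC in vivo alone, with 7.74 against 4.43. Other genes went against the cultured lines. Mmp14, detected by NSC clones and no iNSC clone, was detected on iNSC in vivo alone, with 5.15 (NSC in vivo) and 8.27 (iNSC in vivo). Tbx3, detected by iNSC clones and no NSC clone, was detected on NSC in vivo alone, with 7.89 and 5.83.

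Where a gene past 2-fold and detected on both arrays had other probes, 96 of 102 other probes had the same direction and 75 also passed 2-fold.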

How the data were processed

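Total RNA of 13 samples was measured on Illumina mouse bead arrays. The deposited table holds an averaged bead intensity for each probe on each array, and the authors give a detection p-value for it. The separate table of series values deposited by the authors holds log2 values, judged from their range, and served as an alternative. The submitters' processing notes name BeadStudio 3.2, RMA and lumi, with no role or order. Intensities were background-corrected (normexp fitted from the detection p-values, offset 16), quantile-normalized over 13 arrays and log2-transformed (limma 3.58.1, R 4.3.3). Probes were named from platform annotation: 23978 of 25697 had 1 symbol. A gene was represented by its detected probe with the highest mean over both in vivo arrays. The in vivo pair has no test. The culture comparison used 1 limma fit of 7 groups (statmod 1.5.0 for the replicate block), tested on simulated data, with an adjusted p threshold of 0.05. The labels number the clones and say no more of their origin, so p-values measure the spread between clones. Deviations of same-numbered NSC and iNSC clones correlated at 0.215, 0.492 and 0.271, each above 0.1, and those of other pairs at -0.386 to 0.221, so the ranges overlap. Reported culture calls come from the fit without a block, and the fit with clone number as a block is an alternative.

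The genes, lists and rules were chosen with earlier results of these data known. Genes named are the 12 largest differences each way among genes detected on both arrays, the 8 largest bounds each way, up to 4 members of each list by difference and 2 by level, all Hox and sex-linked genes, and up to 8 each way among genes called in culture. Predicted genes were passed over. Members named beyond this rule, the lists added by symbol and the measured-value alternative were chosen after values were seen. Alternatives were no background correction, another offset, scaling over the pair alone, median scaling, the deposited values, no detection filter, detection on both arrays, other probe rules, a fit of 6 arrays, the block and leaving out each clone. No chip is named in the table, so no chip block was fitted. The number of arrays limits the precision.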

Additional observations from a re-analysis of the deposited data

Results flagged for a closer look

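Among the genes named, 9 differed by at least 2-fold one way between the cultured lines, with clones that did not overlap (limma adjusted p under 0.05, difference ± SE, 3 clones each), and by at least 2-fold the other way between the in vivo arrays. Other named genes with smaller culture differences, such as Klf4 and Hey1, also had opposite directions. The difference between the contrasts was not tested. Higher on iNSC in vivo but lower in cultured iNSC were Mmp14 (a membrane metalloproteinase), 1.71 in vivo and -6.64 ± 0.19 in culture. The same held for Pla2g7 (a phospholipase), 1.64 in vivo and -5.46 ± 0.32 in culture. C2 (a complement protease), 2.14 in vivo and -2.81 ± 0.24 in culture, and Sema4a (a semaphorin), 2.79 in vivo and -1.44 ± 0.27 in culture, had the same directions. Lower on iNSC in vivo but higher in cultured iNSC were Aldh1a1 (a retinaldehyde dehydrogenase), -1.11 in vivo and 4.87 ± 0.10 in culture, and Tbx3 (a T-box factor), -1.26 in vivo and 2.66 ± 0.13 in culture. Flt1 (a VEGF receptor), -2.52 in vivo and 2.05 ± 0.30 in culture, Timp3 (a metalloproteinase inhibitor), -1.96 in vivo and 1.83 ± 0.15 in culture, and Palmd (palmdelphin), -2.50 in vivo and 1.36 ± 0.34 in culture, met the same criteria. Mmp14 and Tbx3 are lower bounds, since each was detected on 1 in vivo array. C2 and Flt1 belong to the complement and endothelial lists.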

How the results depend on the processing

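The in vivo counts (571 higher, 522 lower) became 357 and 322 without background correction and 1114 each way without the detection filter; with measured values in place of bounds the lower count was 807. Culture calls shared in direction (82 higher, 83 lower) became 49 and 42 without background correction, 149 and 137 without the filter, and 55 lower with an offset of 50. A fit of the 6 culture arrays alone gave 437 higher and 427 lower in culture. With the replicate block the culture counts were 878 and 860 and the shared counts 110 and 100, each within 1.5 times of the count without it. Leaving out single clones gave 539 to 667 higher and 486 to 709 lower in culture. Mbp turned from -1.04 to 0.15 as the mean of its probes. Of 140 named genes past 2-fold, 122 passed it the same way without background correction, and 140 did with the deposited values. Of 9 list medians past 2-fold, 6 passed it without background correction (not MHC class I, 0.85, reactive astrocyte, 0.77, or complement, 0.98) and 5 without the filter (not MHC class I, 0.95, reactive astrocyte, 0.81, complement, 0.34, or lymphocyte, 0.94). Reactive astrocyte also had 0.99 with an offset of 50 and 0.85 among genes detected on both arrays. None of the 9 reversed in any setting. The median of all genes moved by under 0.1 in each setting. Only 26.2% to 26.7% of probes were above background, and 1 array a side gives no error for any difference in vivo.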

Other observations

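Gene families picked by symbol, most of them after values were seen, are described here without a test. Some of their members are also in the lists above, among them Ccl5, Cxcl9, Gbp2b and Rsph1, so the counts are not independent of those lists. Over all 6188 genes 9.23% were higher and 8.44% lower. Of 17 detected chemokine ligands, 9 were at least 2-fold higher on iNSC in vivo and 2 lower, with a median of 1.35. Ccl17, a chemokine for type 2 helper T cells, was detected on iNSC in vivo alone (levels 5.66 and 10.65), higher by at least 4.09 on the log2 scale, and Ccl8, a monocyte chemokine, had 6.80 (NSC in vivo) and 10.07 (iNSC in vivo). Cxcl12, a vascular and stromal chemokine, went the other way, with 10.89 and 8.71. Genes of motile cilia and axonemes had 16 of 28 detected members lower and 2 higher, with a median of -1.34, among them Drc3, of the dynein regulatory complex, at least 8.70-fold lower. Many of these 28 genes were detected on NSC in vivo alone, and the bound of such a gene cannot rise above 0. Clock genes had 3 of 9 lower and none higher, with Dbp, an output of the clock, at 12.77 and 10.52. Guanylate binding proteins had 4 of 6 higher and none lower. As a contrast, 0 of 59 detected respiratory chain genes passed 2-fold, and 2 of 50 cytosolic ribosomal protein genes were higher and 1 lower.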
